A study of Mus musculus with 2 samples.

Results

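The genes described here are 10 that move inorganic phosphate across the cell membrane or regulate that movement, taken by symbol from the annotation of the array. They are Slc34a1, Slc34a2, Slc34a3, Slc20a1, Slc20a2, Xpr1, Slc9a3r1, Phex, Stc1 and Stc2. They had 15 of the 55681 probes on the array. The cells were mIMCD3, an immortalised line of epithelial cells from the inner medullary collecting duct of the mouse kidney, grown in medium with serum. RNA of cells given the hormone FGF23 at 10 ng/mL for 4 h was hybridised together with RNA of cells left without it on each of 2 two-colour arrays. FGF23 RNA carried the dye Cy3 on array 1 and Cy5 on array 2, so the dyes were swapped. The labels do not say whether the arrays came from separate cultures or from the same extracts, so the spread between them may be technical.

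FGF23 is a hormone from bone that makes the kidney excrete phosphate. It is known to act on the proximal tubule, through FGF receptors and their co-receptor klotho, by removing the sodium-phosphate cotransporters of the SLC34 family from the brush border. The SLC20 cotransporters serve most other cell types, and XPR1 is the exporter that lets phosphate out of a cell. The collecting duct, from which this line was derived, is not a main site of phosphate reabsorption.

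Each probe was a DNA strand of 60 bases on the glass, and a result for a gene is the result for its probes. The first 30 bases of 5 probes, 5′ to 3′ as the array files give them, are shown to identify these probes. The first belongs to Stc2, which had the largest ratio, and the others to the SLC20 genes, whose probes differed from each other.
Stc2 probe A_51_P208922: aagcagtgagtgggaagatgaacagtctga
Slc20a1 probe A_55_P2115582: ggacagccttccatgttcatctgtctacct
Slc20a1 probe A_55_P2115577: tctcctagaaggtggctggcctgcatccat
Slc20a2 probe A_55_P2075631: cccgaaaccatggaaatgctgctaatattt
Slc20a2 probe A_52_P229044: tggtgcggttacttacagtagatgtgtatt

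On mouse build mm9 the Stc2 probe lies on chromosome 11, chr11:31260136-31260195, on the minus strand. The Slc20a1 probes lie on the plus strand of chromosome 2 at chr2:129037286-129037345, drawn from transcript variant NM_015747, and at chr2:129029990-129030049, drawn from NM_001159593. Both Slc20a2 probes were drawn from NM_011394 and lie on the plus strand of chromosome 8, at chr8:23679961-23680020 and chr8:23679094-23679153. Exon and UTR positions were not analysed here. Over the 99 pairs of probes that belong to different genes of the set, the longest run of bases that both probes of a pair held was 9.

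Of the 10 genes, 5 were measured, meaning that at least 1 probe was flagged well above background on both arrays in FGF23-treated cells or on both in unstimulated cells. Over the whole array 55.3% of gene symbols met that rule. By role, 0 of 3 type II sodium-phosphate cotransporters, 2 of 2 type III cotransporters, the exporter Xpr1, the scaffold Slc9a3r1 and 1 of 3 secreted or surface regulators were measured. Of the 15 probes, 8 were kept. Over all non-control spots, the share flagged well above background ran from 48.2% (Cy3, array 1) to 55.2% (Cy5, array 2), and no spot was saturated. Among markers of the cell type, 11 of 17 collecting duct genes were measured, including the water channel Aqp2, the sodium channel subunit Scnn1a and the urea transporter Slc14a2. The vasopressin receptor gene Avpr2, Aqp3, Aqp4, Scnn1b, Scnn1g and Elf5 were not. Of 13 proximal tubule markers 6 were measured, namely Lrp2, Cubn, Slc22a6, Aqp1, Slc6a19 and Ggt1, while Slc5a2, Slc5a1, Slc22a8, Slc22a12, Hnf4a, Fbp1 and Slc27a2 were not. Mean log2 intensities of these measured genes ran only from 6.6 (Aqp1) to 8.2 (Lrp2), against 6.4 for an Slc34a1 probe that was not kept. For the measured collecting duct genes they ran from 7.2 (Scnn1a) to 16.6 (Krt18). Scnn1a, Aqp2 (7.5) and Gata3 (7.7) lay within the range of the proximal tubule markers. Tfcp2l1 (9.7), Slc14a2 (10.0) and Grhl2 (11.2) lay above it. The keratins, Cdh1 and Epcam ran from 10.2 (Epcam) to 16.6, and do not by themselves tell collecting duct from other epithelium. Measured markers of other cells numbered 2 of 6 for thick ascending limb and distal tubule, 2 of 5 for intercalated cells, 1 of 5 for fibroblasts, 2 of 5 for macrophages and 2 of 5 for endothelium. Of these, the macrophage marker Csf1r (11.45) and the endothelial marker Kdr (11.34) were brighter than Aqp2, Scnn1a and Slc14a2 in mean log2 intensity. The other measured markers of these cells ran from 6.45 (Slc4a1) to 8.4 (Cd68). None of the markers passed the test described below. The klotho gene Kl was not measured in either condition.

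**Figure D1:**
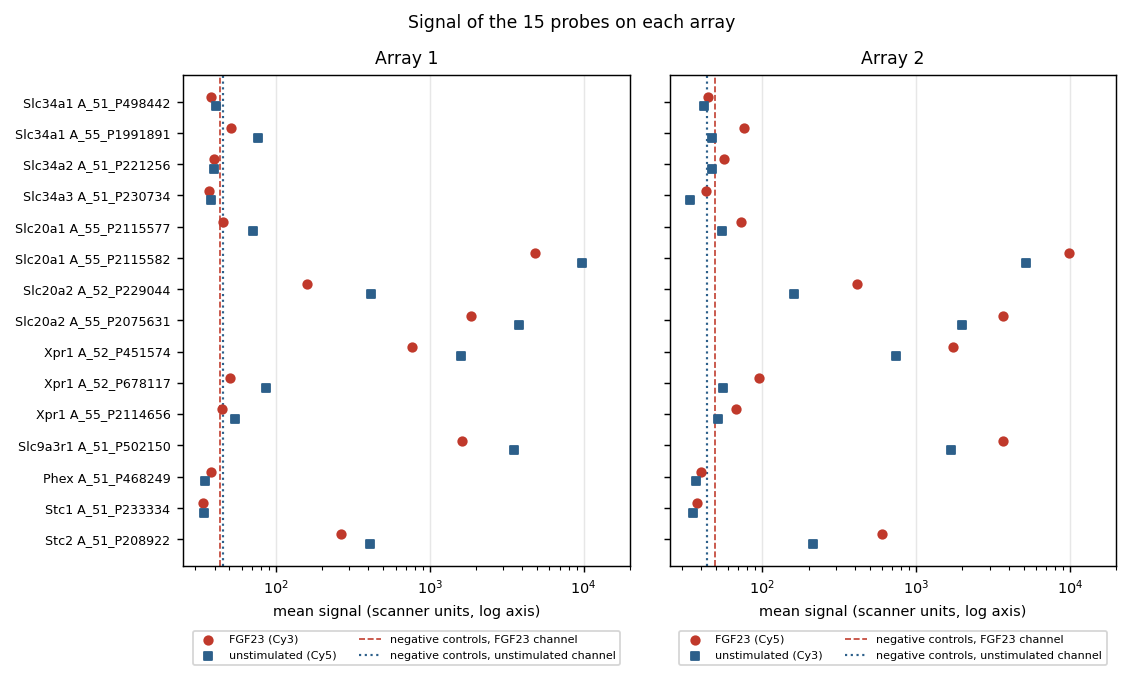
Mean signal of each of the 15 probes (rows) on array 1 and array 2, in scanner units on a log axis, with FGF23-treated cells as circles and unstimulated cells as squares. Vertical lines mark the 95th percentile of 308 negative control spots in each channel, from 43.4 to 49.0. The probes of Phex, Stc1 and Slc34a3 lie below these lines, and the Cy5 channel is the brighter one for every probe of the measured genes, whichever RNA it held.

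The type II cotransporters were not measured in either condition. Of them, Slc34a1 and Slc34a3 carry phosphate from the urine into proximal tubule cells and are the main targets of FGF23 there. Slc34a3, the NaPi-IIc cotransporter, had mean signals of 36.9 and 43.0 in FGF23-treated cells on arrays 1 and 2, against 38.0 and 34.1 in unstimulated cells. Its local background was 35 and 34 with FGF23 and 34 and 40 without. Slc34a2, the NaPi-IIb cotransporter known from intestine and lung, had 39.5 and 56.4 with FGF23, against 39.7 and 46.8 without. Its readings on array 2 exceeded the 95th percentile of the negative controls in both channels, but none of its 4 readings was flagged well above background.

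Slc34a1, the NaPi-IIa cotransporter, had probes that differed. Probe A_51_P498442 had mean signals of 38.0 and 44.2 with FGF23, against 41.0 and 41.9 without, and none of its 4 readings exceeded the negative controls' 95th percentile. Probe A_55_P1991891, at chr13:55514826-55514885, had 51.1 and 76.0 with FGF23, against 76.4 and 47.4 without. All 4 of these readings exceeded that percentile. The flag for well above background was set in the Cy5 channel of each array only, which held unstimulated RNA on array 1 and FGF23 RNA on array 2. The probe therefore did not meet the rule in either condition, and no ratio is drawn from it.

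Phex, an endopeptidase of bone cells whose loss raises circulating FGF23, had mean signals of 38.0 and 39.8 with FGF23, against 34.8 and 36.9 without. Stc1, the stanniocalcin first known as a calcium-lowering hormone of fish, had 33.5 and 37.7 with FGF23, against 34.0 and 35.3 without. All 8 readings of these probes lay below the negative controls' 95th percentile. No probe of these 5 genes was flagged well above background on both arrays with FGF23, so none of them rose to a measured level. A decrease, or a change below that level, was not detectable at these signals.

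In the measured genes, 0 of 5 passed limma's test at an adjusted p of 0.05, where 0.0468% of all 19220 measured genes passed as higher with FGF23 and 0% as lower. None was at least 1.5-fold higher or lower on both arrays, where 0.0312% of all genes were higher by that rule and 0% lower. Log2 ratios of FGF23-treated over unstimulated cells had a median of -0.027 over the 5 genes and of -0.00068 over all genes. One gene, Stc2, was above 0 on both arrays, where 23.9% of all genes were. None was below 0 on both, where 22.3% of all genes were. The other 4 had opposite signs on the arrays, where 53.8% of all genes did. Each gene is represented by its brightest kept probe, and the value of the other kept probe is given beside it.

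**Figure D2:**
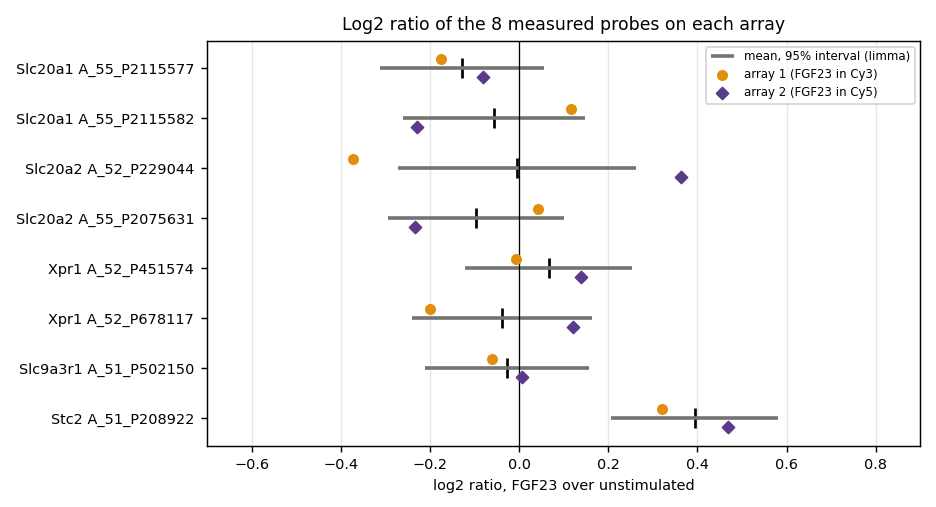
Log2 ratio of FGF23-treated over unstimulated cells for the 8 kept probes (rows). Circles are array 1, diamonds array 2, the tick is their mean and the bar limma's 95% interval, not corrected for the number of probes. Stc2 lies above 0 on both arrays, at 0.32 and 0.47, while Slc20a2 probe A_52_P229044 lies at -0.37 and 0.36.

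Among the secreted regulators, Stc2 had the largest ratio of the set. Stc2 is a secreted glycoprotein related to Stc1, known also as an inhibitor of the protease that frees insulin-like growth factors. Its background-corrected, normalised intensity was 397 on array 1 and 453 on array 2 in FGF23-treated cells, against 318 and 327 in unstimulated cells. After normalisation the FGF23 channel was the brighter one on each array, whichever dye it carried. The log2 ratio was 0.39 ± 0.10 (SD, n = 2 arrays), a 1.31-fold higher level, and its 95% interval ran from 0.20 to 0.58 on the log2 scale before any correction for the number of genes. It ranked 38 of 19220 genes from the highest.

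Stc2 did not pass. In limma its unadjusted p was 0.00066 and its adjusted p 0.29, and in the fit over all 26941 kept probes its adjusted p was 0.20. In that fit 0 of the 8 probes passed, where 0.0817% of all kept probes passed as higher with FGF23 and 0.00371% as lower. At an unadjusted p under 0.05, 2.6% of all genes were higher. The 9 genes that did pass had mean log2 ratios from 0.59 to 1.05. When the spread was estimated with a trend on brightness and a robust prior, Stc2 passed at an adjusted p of 0.012, among 79 genes called in place of 9. Over the other processing settings its adjusted p ran from 0.16 to 0.53, and was 0.999997 with median centring. Only 1 probe reports Stc2, so no second probe bears on it.

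The type III cotransporters carry phosphate into most cells and were each read by a bright and a dim probe. The bright probe of Slc20a1, which encodes PiT-1, had a normalised intensity of 7164 on array 1 and 6601 on array 2 with FGF23, against 6613 and 7735 without. The normalised FGF23 channel was the brighter one on array 1 and the dimmer one on array 2. The log2 ratio was -0.057 ± 0.24 (SD, n = 2 arrays), with an adjusted p of 0.9999 in limma. The 95% interval of the fold ran from 0.83 to 1.11.

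The dim probe of Slc20a1, drawn from the other transcript variant, had mean signals of 45.6 and 72.5 with FGF23, against 70.7 and 54.7 without. It was well above background on both arrays in unstimulated cells but only on array 2 with FGF23, so it was kept through unstimulated cells alone, and its direction is given as a description. Its log2 ratios were -0.18 and -0.080, with a mean of -0.13. That mean was -0.36 with a normexp offset of 0 and -0.51 with the scanner software's log ratio. On array 1 its local background was 40 with FGF23 and 37 without, and on array 2 it was 35 with FGF23 and 38 without.

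Slc20a2, which encodes PiT-2, was read at 2730 and 2514 with FGF23 by its bright probe, against 2653 and 2958 without (normalised intensity, arrays 1 and 2). As with Slc20a1, the normalised FGF23 channel was the brighter one on array 1 and the dimmer one on array 2. The log2 ratio was -0.096 ± 0.20 (SD, n = 2 arrays), with an adjusted p of 0.9999 in limma. Its fold had a 95% interval from 0.81 to 1.08.

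The other Slc20a2 probe, A_52_P229044, gave the widest disagreement between arrays in the set. Its normalised intensity was 251 and 319 with FGF23, against 326 and 248 without. The log2 ratios of FGF23-treated over unstimulated cells were thus -0.37 on array 1 and 0.36 on array 2. Turned to the dyes, Cy5 was brighter than Cy3 by 0.37 on the log2 scale on array 1 and by 0.36 on array 2, whichever RNA it held. The mean of the arrays was -0.0044 ± 0.52 (SD). A mean Cy5 over Cy3 log2 ratio of at least that size in either direction was found in 0.676% of kept probes.

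The p-values that the scanner software gave in the authors' deposited files set these probes side by side. For Slc20a2 probe A_52_P229044 they were 0.019 on array 1 and 0.043 on array 2, in opposite directions. For Stc2 they were 0.042 and 0.017, in the same direction. Among all kept probes, 0.323% had a scanner p under 0.05 on both arrays in the same direction and 0.683% in opposite directions. The software's processed log2 ratios, turned to FGF23 over unstimulated, were 0.43 and 0.50 for Stc2.

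**Figure D3:**
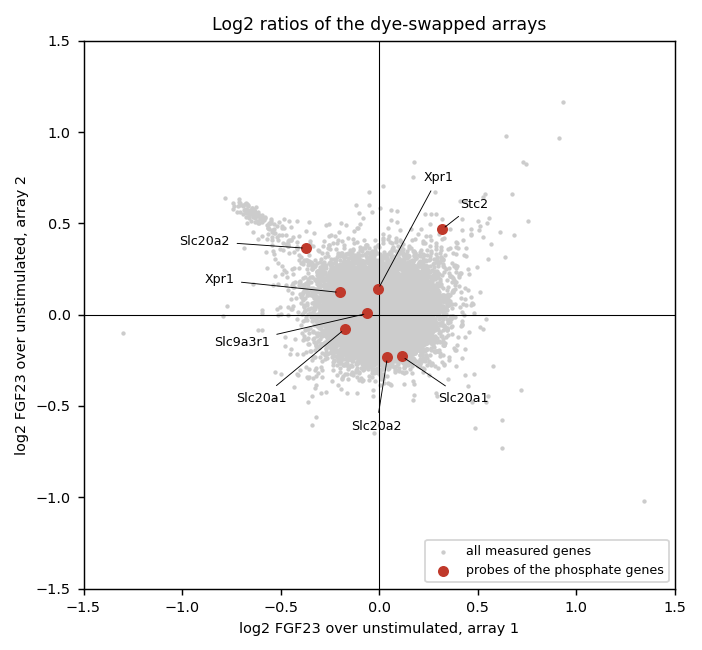
Log2 ratio of FGF23-treated over unstimulated cells on array 1 (x axis) against array 2 (y axis). Grey points are the 19220 measured genes and red points the 8 kept probes of the phosphate genes. Stc2 lies at the upper right, at 0.32 and 0.47, and Slc20a2 probe A_52_P229044 at the upper left, at -0.37 and 0.36.

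Xpr1, the phosphate exporter, was read by 3 probes, of which 2 were kept. Its bright probe, A_52_P451574 at chr1:157122924-157122983 on the minus strand, had a normalised intensity of 1128 and 1218 with FGF23, against 1133 and 1107 without. The normalised channels were nearly equal on array 1, and on array 2 the FGF23 channel was slightly the brighter. The log2 ratio was 0.066 ± 0.10 (SD, n = 2 arrays), with an adjusted p of 0.9999 in limma and a 95% interval of the fold from 0.92 to 1.19.

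The probe A_52_P678117 of Xpr1 covers 6820 bases of the genome with its 60 bases, so it crosses at least 1 intron. It had mean signals of 50.5 and 95 with FGF23, against 86.8 and 55.9 without, and its log2 ratios were -0.20 and 0.12. It too was kept through unstimulated cells alone. Cy5 was the brighter dye after normalisation on both arrays, as in the Slc20a2 probe. The probe A_55_P2114656, drawn from another Xpr1 transcript, was well above background with FGF23 on array 2 only and was not kept.

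Slc9a3r1 encodes NHERF1, the PDZ scaffold that holds NaPi-IIa at the brush border and that FGF23 and parathyroid hormone are known to act on in the proximal tubule. Its probe, at chr11:115042133-115042192, had a normalised intensity of 2362 and 2511 with FGF23, against 2463 and 2499 without. The normalised FGF23 channel was the dimmer one on array 1 and nearly equal to the other on array 2. The log2 ratio was -0.027 ± 0.047 (SD, n = 2 arrays), with an adjusted p of 0.9999 in limma and a fold interval from 0.86 to 1.12. For Slc20a1, Slc20a2, Xpr1 and Slc9a3r1 the adjusted p does not show that FGF23 did not change them. Their intervals, each from the brightest probe, together span folds from 0.81 to 1.19. On the log2 scale the interval of the dim Slc20a1 probe ran from -0.31 to 0.057. That of Slc20a2 probe A_52_P229044 ran from -0.27 to 0.26. As the spread between the arrays may be technical, these intervals do not bound an effect over separate cultures.

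Genes that work with these transporters were taken from 4 lists, and none of their measured members passed the test. XPR1 is opened by inositol pyrophosphates, and 8 of 11 genes for the enzymes that make or break these messengers and for its partner Kidins220 were measured. Of them, 2 were above 0 on both arrays and 0 below, with a median log2 ratio of 0.020. Over all 19220 measured genes 23.9% were above and 22.3% below 0 on both arrays, which is the background for all 4 lists. The median was 0.0049 with median centring and 0.0082 on array 2 alone. The inositol hexakisphosphate kinase Ip6k2 had -0.11 ± 0.16 and the inositol polyphosphate multikinase Ipmk had 0.050 ± 0.012 (SD, n = 2 arrays). That Ipmk value is from its brightest probe. A dimmer kept probe of Ipmk, A_52_P81101, had -0.20 on array 1 and 0.28 on array 2.

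Of 11 scaffold and trafficking partners of the SLC34 transporters, 8 were measured, with a median of 0.035, and 2 were above and 2 below 0 on both arrays. That median was 0.0031 on array 2 alone, 0.0064 with the mean over a gene's probes and 0.0099 with no filter on dim probes. Moesin (Msn) and ezrin (Ezr) tie membrane proteins to actin, and ezrin binds NHERF1. Msn had -0.19 ± 0.24 and Ezr had 0.12 ± 0.068, each with an adjusted p of 0.9999 in limma. The exchanger Slc9a3 and the PDZ scaffolds Pdzk1 and Pdzd3, which are proximal tubule or intestinal proteins, were not measured.

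Among 12 other phosphate carriers, 8 were measured, with a median of 0.033, and 4 were above and 1 below 0 on both arrays. The median was 0.090 on array 1 alone. Slc37a1, a sugar-phosphate exchanger, had log2 ratios of 0.30 and 0.077 on the arrays. Slc17a1, the first renal sodium-phosphate transporter described and known also to carry urate, had 0.00062 and 0.37. Its normalised level thus differed on 1 array only. The mitochondrial phosphate carrier Slc25a3 had 0.029 ± 0.11, and 0.081 ± 0.11 by its dimmer kept probe. Slc17a2, Slc17a3, Slc17a4 and Slc37a2 were not measured.

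Of 20 mineral hormones, their receptors and mineralization genes, 8 were measured, with a median of -0.0036, and 2 were above and 2 below 0 on both arrays. The sign of this median turned on array 2 alone, to 0.035, and with the mean over a gene's probes, to 0.0071. Fam20c, the secretory kinase that phosphorylates FGF23, had 0.10 ± 0.040 by its brightest probe. A dimmer kept probe of Fam20c, A_55_P2157517, had 0.026 on array 1 and -0.041 on array 2. The gene for FGF23 itself had -0.080 ± 0.20. Galnt3, which protects FGF23 from cleavage by adding a sugar, had 0.068 ± 0.013. The measured members of the 4 lists had mean log2 ratios from -0.19 to 0.19, all smaller in size than the 0.39 of Stc2.

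**Figure D4:**
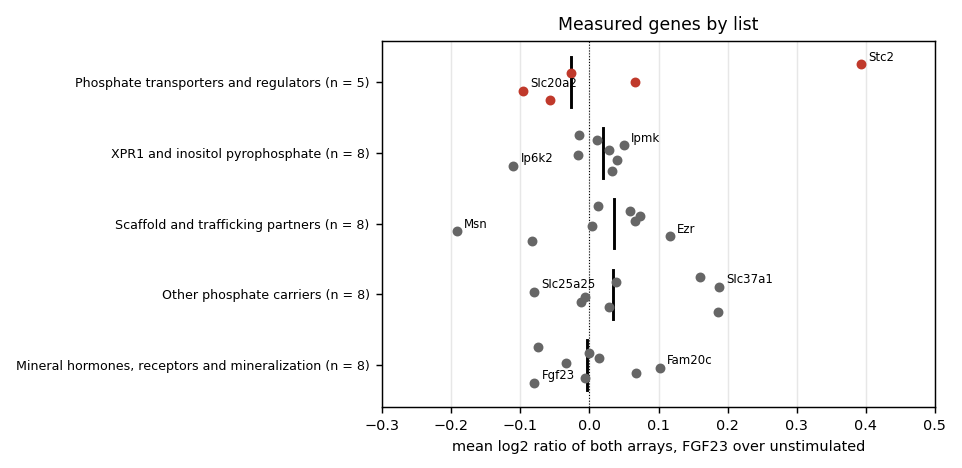
Mean log2 ratio of FGF23-treated over unstimulated cells for each measured gene (points) of the phosphate transporters and regulators (red, 5 genes) and of the 4 lists around them (grey, 8 genes each). Thick bars are medians, from -0.027 to 0.035, and the genes with the highest and lowest ratio of each row are named. Stc2, at 0.39, lies to the right of all other points.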

How the data were processed

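The deposited files are the authors' scanner output, which per the file headers came from version 11.5.1.1 of Feature Extraction. The deposited intensity values are mean signals and local background medians per spot and dye. The deposited log10 ratio of Cy5 over Cy3 had been background-subtracted and dye-normalized by the software, and the deposited p-value of each ratio came from its error model, per the file headers. Each spot also carried flags that mark it as an outlier, as saturated or as well above background. Each array had 62976 spots, 189 and 201 of the non-control ones flagged as outliers.

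Mean signals were corrected by normexp (offset 50) and normalized by loess within each array, giving control spots a weight of 0 (limma 3.58.1, R 4.3.3). Outlier spots were left out, spots of a probe averaged, and ratios turned to FGF23 over unstimulated by the labelled dyes. Normalised intensities include the offset and compare channels within an array only. The filter kept 26941 probes and 19220 genes, each represented by its brightest kept probe. Symbols of other genes were updated through RefSeq transcripts of GRCm38.p6, which 28026 probes matched.

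Log2 ratios of both arrays were tested in limma (lmFit, eBayes), with 1 residual degree of freedom and 11.9 from all genes, and Benjamini-Hochberg adjustment over all of them. No dye term was possible with 2 arrays, so a dye effect cancels in the mean and widens the spread. All members were named with every probe, and per list the 2 measured genes of largest absolute mean log2 ratio. Galnt3, Slc25a3 and genes named as not measured were chosen after their values were seen. Members and lists were chosen with earlier results of these data known. The number of arrays limits the precision.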

Additional observations from a re-analysis of the deposited data

How the results depend on the processing

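The count of phosphate genes past the test was 0 with the scanner software's log ratio, a normexp offset of 0, median centring, no filter on dim probes, a stricter filter and the mean over a gene's probes, and 1 (Stc2) with a brightness trend and robust prior. The cause was not tested. The adjusted p of Stc2 was 0.53 with the scanner software's log ratio, where its log2 ratio was 0.46, and 0.999997 with median centring, where it was 0.38. None was at least 1.5-fold on both arrays under any setting run, nor on either array alone (0 to 0), nor at 2-fold. Signs of the 5 genes, and of the 8 kept probes where a setting gave them a value, did not change under the processing settings run, but changed between single arrays for 4 of the 5 genes. The dim Slc20a1 probe and Xpr1 probe A_52_P678117 had no value with the stricter filter, and no single probe had one with the mean over a gene's probes. The widest range was that of the dim Slc20a1 probe, from -0.51 to -0.11. Of the list medians under an alternative, 25 moved by less than the spread between arrays and 7 by more, to values from 0.0031 to 0.090. Both counts include medians of 1 array alone, which are themselves part of that spread. Processing settings moved by more only the median of the XPR1 list (0.0049, median centring) and that of the scaffold list. The latter was 0.0064 with the mean over a gene's probes and 0.0099 with no filter. With 2 arrays, leaving out 1 gives a value with no test. The ratio within each array already pairs the conditions, and no further replicate block was fitted. Low signal limited 5 of the 10 genes, which had no kept probe.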
